A study of Mus musculus with 9 samples.

Results

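The subject is a list of 44 genes of the cell division cycle and of DNA replication, measured by RNA sequencing of whole mouse kidney. The list was written by gene symbol, and all 44 symbols were matched to a row of the deposited count table, which holds 55359 genes. It falls into 20 genes of DNA replication, 4 drivers of the step from G1 to S phase, and 20 genes of mitosis. Members were not chosen by a threshold on these measurements, but the list was chosen with earlier results of these data known.

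A dividing cell first licenses its replication origins with the MCM helicase, then copies its DNA in S phase, and later builds a spindle and divides in mitosis. Genes of the S phase are switched on by E2F factors once cyclin D and cyclin E kinases have inactivated the RB proteins, whereas mitosis genes peak later, under B-MYB and FOXM1, through the CHR promoter element. Most cells of the adult kidney are out of the cycle, and tubule cells re-enter it after injury.

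The libraries fall into 3 groups of 3. The HFD-STZ DHZ mice were started on a high-fat diet (HFD, 49.0% of calories from fat) at 6 weeks of age and received 2 injections of streptozotocin (STZ), a toxin of insulin-producing beta cells, at 30 mg/kg on days 60 and 63. Blood glucose was tested on day 65, before 2 weeks of oral dehydrozingerone (DHZ) at 50 mg/kg, a curcumin-related compound of ginger. The HFD-STZ vehicle mice had the same diet and STZ, and the NCD vehicle mice were started at 6 weeks on a normal diet (NCD) with 11.32% of calories from fat. The sources used here do not give the strain, the sex or the vehicle. Titles set the groups, because DHZ stands in the treatment field of every library, vehicle ones included. Whether all libraries of a group came from separate animals is not stated. A p-value then reflects the spread between samples, which may in part be technical. Every library has its own batch date, and the dates follow the groups, so that effects of batch and of group cannot be told apart.

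Total counts were 15.1 to 47.5 M per library, of which 39.2% to 60.4% fell on mitochondrially encoded genes. The 44 members together held 691 (HFD-STZ vehicle replicate 2) to 9164 counts (HFD-STZ DHZ replicate 2), so values in HFD-STZ vehicle replicate 2 carry the largest counting error. Transcripts of Y-linked genes summed to 36.5 to 106 per M of total count in HFD-STZ DHZ replicate 3, HFD-STZ vehicle replicates 2 and 3 and NCD vehicle replicate 1, and to 0 to 0.209 in the other 5 libraries. Xist ran the other way, at 500 to 779 per M of total count in those 5 libraries and 0.109 to 0.848 in the rest. Each group held libraries of both kinds, so no group came from a single animal. All 12 kidney marker genes, such as Umod and Slc34a1, had counts in the libraries. HFD-STZ DHZ replicate 3 stood apart from the other 8 libraries in the mitosis genes, and the list medians and sums are also given without it.

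Levels are in CPM, counts per M after scaling each library by the TMM method. Per kilobase of exon, averaged over the 9 libraries, cyclin D1 (Ccnd1) was the most abundant member at 11.9 CPM per kb, followed by the replication clamp Pcna at 3.29 and the thymidylate synthase Tyms at 1.66. Cyclin E1 (Ccne1) was the least abundant at 0.04 CPM per kb. Among the mitosis genes Kif23 was at 1.00 CPM per kb, and the other 19 were between 0.0481 (Aurkb) and 0.348 (Mki67).

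The replication genes and the mitosis genes differed in which libraries were high. Summed over the 20 replication genes, the level was 59.1, 59.3 and 67.8 CPM in HFD-STZ DHZ replicates 1 to 3, against 44.9, 36.4 and 42.7 CPM in HFD-STZ vehicle and 42.0, 43.7 and 39.1 CPM in NCD vehicle. All 3 DHZ libraries lay above all 6 vehicle libraries in this sum. The abundant genes Pcna, Mcm6 and Rrm1, given below, held much of that gap. The sums of the other replication genes overlapped between DHZ and vehicle libraries. The median over the 20 genes was 1.93, 1.60 and 2.34 CPM in HFD-STZ DHZ, against 1.14, 1.08 and 1.16 CPM in HFD-STZ vehicle. In NCD vehicle that median was 0.936, 0.997 and 0.946 CPM. Summed over the 20 mitosis genes, the level was 15.1, 17.4 and 66.8 CPM in HFD-STZ DHZ, against 18.6, 17.9 and 21.3 CPM in HFD-STZ vehicle and 17.5, 10.6 and 13.1 CPM in NCD vehicle. Here HFD-STZ DHZ replicate 3 alone was high, and the other 2 DHZ libraries lay below every HFD-STZ vehicle library. That order depends on the scaling, since per M of total count the mitosis genes stood at 18.6, 23.8 and 83.4 in HFD-STZ DHZ, against 22.8, 5.86 and 15.2 in HFD-STZ vehicle. The order also rests on Kif23, given below. Without Mki67 and Kif23, DHZ replicates 1 and 2 summed to 8.11 and 7.57 CPM, within the 7.21 to 9.19 CPM of HFD-STZ vehicle. In whole tissue, more cells in cycle and more RNA per cell cannot be told apart.

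**Figure D1:**
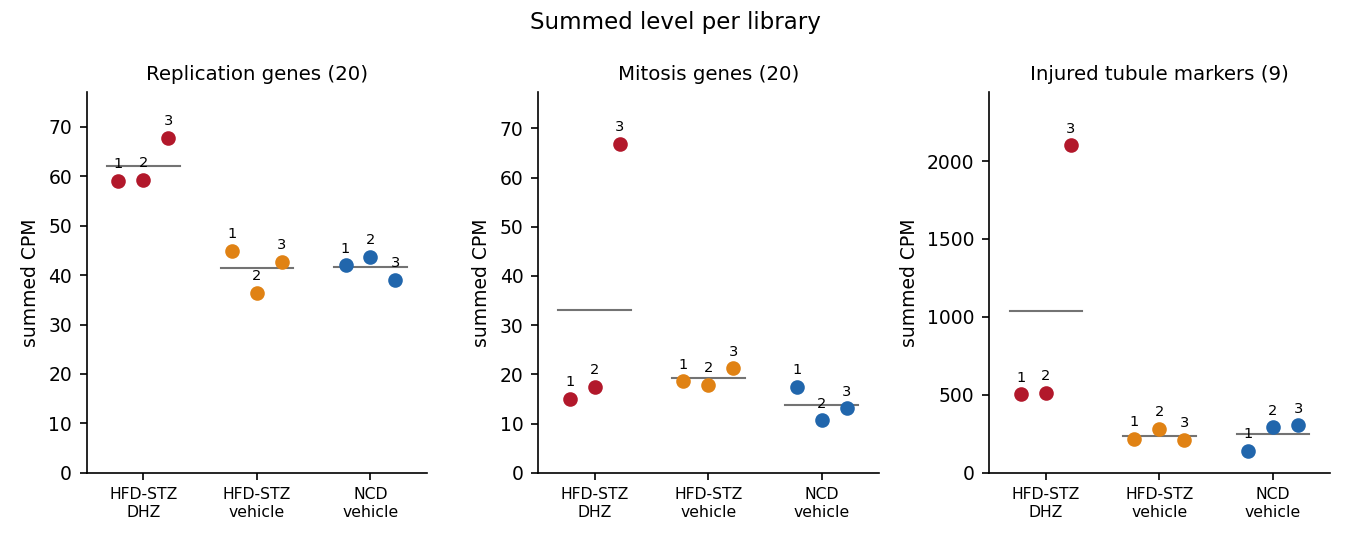
Summed CPM (y axis) of the 20 replication genes, the 20 mitosis genes and 9 markers of injured tubule cells in each library, by group (x axis). Points are libraries numbered by replicate and lines are group means. All 3 DHZ libraries are high for replication, whereas replicate 3 alone, at 66.8 CPM, is high for mitosis. Most of the injured tubule sum in the DHZ libraries is Spp1.

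**Figure D2:**
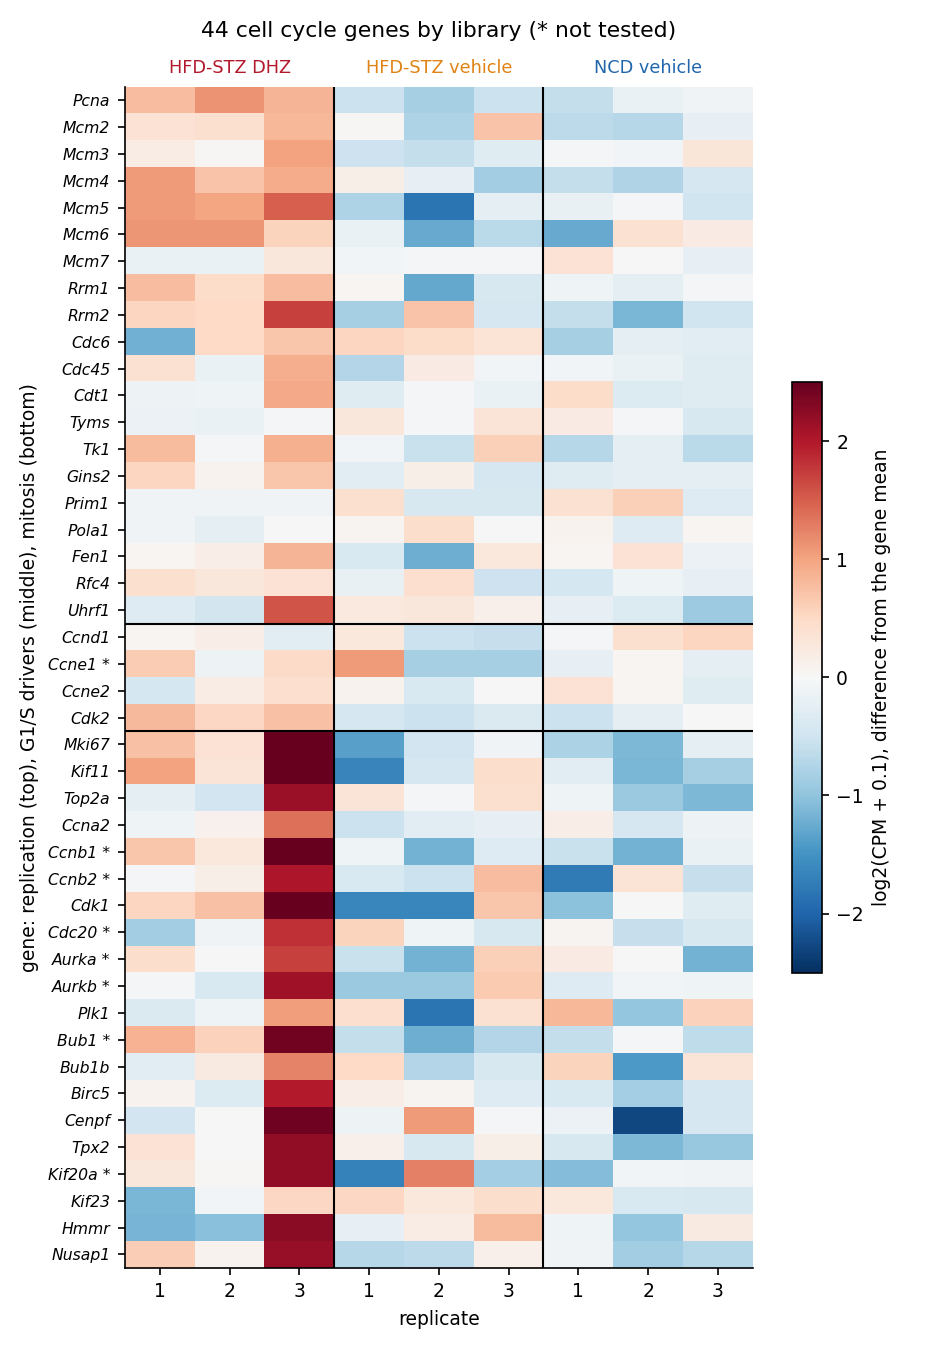
Level of each of the 44 genes (rows) in each of the 9 libraries (columns), as log2(CPM + 0.1) minus the gene's mean over the libraries. Red is above and blue is below that mean, and a star marks the 8 genes that were not tested. The lower block of mitosis genes is red in HFD-STZ DHZ replicate 3.

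Of the 44 members, 36 had enough counts to be tested, namely all 20 replication genes, 3 of 4 G1/S drivers and 13 of 20 mitosis genes. The 8 others were Ccne1, Ccnb1, Ccnb2, Cdc20, Aurka, Aurkb, Bub1 and Kif20a. Every adjusted p below is from edgeR's two-sided quasi-likelihood F-test, adjusted by Benjamini-Hochberg across the 17179 genes tested, and genes under 0.05 were called. In HFD-STZ DHZ against HFD-STZ vehicle, 7 of the 36 tested members (19.4%) were called, all of them higher, where 22.1% of all genes tested were called and 10.0% were called higher. The share of members called was thus near that of all genes. None of the members was called lower, where 12.0% of all genes were. The median log2 fold change was 0.78 over the tested members and 0.04 over all genes. By role, 5 of 20 replication genes, 1 of 3 G1/S drivers and 1 of 13 mitosis genes were called. In 11 of the 36 the DHZ and HFD-STZ vehicle libraries did not overlap, as in 39.8% of all genes, with 9 members (25.0%) higher and 2 lower, where 20.9% of all genes were higher and 19.0% lower.

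In HFD-STZ DHZ against NCD vehicle, 9 of the 36 tested members (25.0%) were called, all higher, where 13.7% of all genes were called, 6.31% higher and 7.38% lower. They were 4 replication genes, 1 G1/S driver and 4 mitosis genes, and the median log2 fold change over the tested members was 0.92, against 0.01 over all genes. The count of mitosis calls depended on the tool. Of the 13 tested mitosis genes edgeR called 4 against NCD vehicle and 1 against HFD-STZ vehicle, DESeq2 called 7 and 2, and limma-voom called 0 in both. Over all 36 members, DESeq2 called 15 and limma-voom 6 against NCD vehicle, with 8 and 6 against HFD-STZ vehicle. In 17 of the 36 (47.2%) every DHZ library was above every NCD vehicle library and in 0 below, where 44.1% of all genes did not overlap, 22.4% higher and 21.7% lower. The comparison shares the DHZ libraries with the one before, so the 2 sets of calls are not independent. In HFD-STZ vehicle against NCD vehicle, edgeR called 0 of the 36 tested members, where 0.0524% of all genes were called, 0.0233% higher and 0.0291% lower. None of the 36 had an unadjusted p under 0.05 there, and DESeq2 and limma-voom also called 0.

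Among the replication genes, Pcna, the sliding clamp that holds DNA polymerase on its template, had the lowest p of the list against HFD-STZ vehicle and against NCD vehicle. It stood at 12.0, 15.5 and 12.6 CPM in HFD-STZ DHZ, against 4.82, 3.91 and 4.78 CPM in HFD-STZ vehicle and 4.60, 6.27 and 6.57 CPM in NCD vehicle. The DHZ libraries lay above all 6 vehicle libraries. Pcna rose by 1.56 ± 0.22 on the log2 scale against HFD-STZ vehicle (SE, adjusted p = 0.0031) and by 1.20 ± 0.21 against NCD vehicle (adjusted p = 0.010). Pcna has a processed pseudogene in the table, Pcna-ps2, at 2.20, 2.64 and 2.33 CPM in HFD-STZ DHZ, against 1.25, 1.21 and 1.16 CPM in HFD-STZ vehicle and 1.44, 1.54 and 1.53 CPM in NCD vehicle. Reads of the 2 may have been divided between them, so the level of Pcna is uncertain to that extent.

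The MCM2 to MCM7 proteins form the ring-shaped helicase that is loaded at origins and unwinds DNA, and 3 of its 6 genes rose against HFD-STZ vehicle. Mcm6 had 6.67, 6.74 and 4.57 CPM in HFD-STZ DHZ, against 2.71, 1.21 and 1.89 CPM in HFD-STZ vehicle and 1.23, 4.03 and 3.55 CPM in NCD vehicle. DHZ replicate 3 was the lowest of the 3 DHZ libraries for this gene, and still above all 6 vehicle libraries. Its log2 fold change was 1.58 ± 0.41 against HFD-STZ vehicle (adjusted p = 0.019) and 1.01 ± 0.39 against NCD vehicle, which did not pass (adjusted p = 0.096).

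Mcm4 had 2.73, 2.13 and 2.50 CPM in HFD-STZ DHZ, against 1.41, 1.08 and 0.642 CPM in HFD-STZ vehicle and 0.802, 0.706 and 0.920 CPM in NCD vehicle, with no overlap. It rose by 1.25 ± 0.35 on the log2 scale against HFD-STZ vehicle (adjusted p = 0.027) and by 1.58 ± 0.34 against NCD vehicle (adjusted p = 0.017). Mcm5 was at lower levels, with 0.647, 0.602 and 0.901 CPM in HFD-STZ DHZ, against 0.108, 0 and 0.201 CPM in HFD-STZ vehicle and 0.214, 0.249 and 0.153 CPM in NCD vehicle. These rest on 22, 39 and 31 counts in the DHZ libraries and on 6 counts or fewer in each vehicle library. The fitted change of Mcm5 was 2.41 ± 0.61 against HFD-STZ vehicle (adjusted p = 0.018) and 1.81 ± 0.53 against NCD vehicle (adjusted p = 0.042).

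The other 3 MCM subunits were not called. Mcm2 had 2.47, 2.53 and 3.43 CPM in HFD-STZ DHZ, against 1.95, 1.08 and 3.17 CPM in HFD-STZ vehicle and 1.18, 1.12 and 1.64 CPM in NCD vehicle. The DHZ libraries lay above the NCD vehicle libraries and overlapped HFD-STZ vehicle, with log2 fold changes of 1.08 (adjusted p = 0.063) and 0.37 (adjusted p = 0.475). Mcm3 had an estimate of 1.03 (adjusted p = 0.114) and Mcm7 one of 0.04 ± 0.25 (adjusted p = 0.929) against HFD-STZ vehicle. Subunits of 1 complex thus had estimates from 0.04 to 2.41.

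Ribonucleotide reductase makes the deoxynucleotides for replication, from the large subunit Rrm1 and the small, S-phase subunit Rrm2. Rrm1 had 6.97, 5.63 and 7.01 CPM in HFD-STZ DHZ, against 4.17, 1.62 and 3.05 CPM in HFD-STZ vehicle and 3.74, 3.45 and 3.99 CPM in NCD vehicle. All DHZ libraries were the higher ones, by 1.10 ± 0.29 on the log2 scale against HFD-STZ vehicle (adjusted p = 0.021) and by 0.81 ± 0.28 against NCD vehicle, where the test was missed (adjusted p = 0.072). Rrm2 had 1.41, 1.37 and 3.31 CPM in HFD-STZ DHZ, against 0.488, 1.62 and 0.682 CPM in HFD-STZ vehicle and 0.588, 0.374 and 0.639 CPM in NCD vehicle. Its DHZ replicate 3 was over 2 times the other DHZ libraries, and HFD-STZ vehicle replicate 2, with 12 counts, overlapped the DHZ range. Rrm2 rose by 1.90 ± 0.50 against NCD vehicle (adjusted p = 0.030), and against HFD-STZ vehicle its estimate was 1.27 (adjusted p = 0.094). Without DHZ replicate 3 these were 1.38 (adjusted p = 0.095) and 0.73 (adjusted p = 0.325), and neither passed.

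The remaining replication genes did not pass in either comparison. Tk1, the thymidine kinase of the salvage pathway, had 1.85, 1.00 and 2.01 CPM in HFD-STZ DHZ, against 0.976, 0.674 and 1.61 CPM in HFD-STZ vehicle and 0.588, 0.872 and 0.613 CPM in NCD vehicle, above NCD vehicle in each DHZ library (log2 fold change 1.21, adjusted p = 0.067). Cdc6, which loads the MCM ring, had 0.0588, 0.416 and 0.494 CPM in HFD-STZ DHZ, against 0.434, 0.405 and 0.361 CPM in HFD-STZ vehicle and 0.107, 0.208 and 0.204 CPM in NCD vehicle. Its lowest library was DHZ replicate 1, with 2 counts, and its estimate against HFD-STZ vehicle was -0.27 ± 0.65. Tyms, which makes thymidylate, ran the other way without passing, at 9.08, 8.87 and 9.83 CPM in HFD-STZ DHZ, against 12.1, 9.85 and 12.6 CPM in HFD-STZ vehicle and 11.5, 9.72 and 7.51 CPM in NCD vehicle (log2 fold change -0.32, adjusted p = 0.276). The polymerase alpha genes Prim1 and Pola1 had estimates of -0.02 and -0.28. Cdc45, Cdt1, Gins2, Fen1, Rfc4 and Uhrf1 had estimates from 0.38 to 0.86 against HFD-STZ vehicle. Of these, Uhrf1, which recruits the maintenance methylase to new DNA, was high in DHZ replicate 3 alone, at 0.588, 0.524 and 2.44 CPM in HFD-STZ DHZ, against 0.922, 0.944 and 0.843 CPM in HFD-STZ vehicle and 0.642, 0.582 and 0.358 CPM in NCD vehicle. Without that library its estimate was -0.68.

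**Figure D3:**
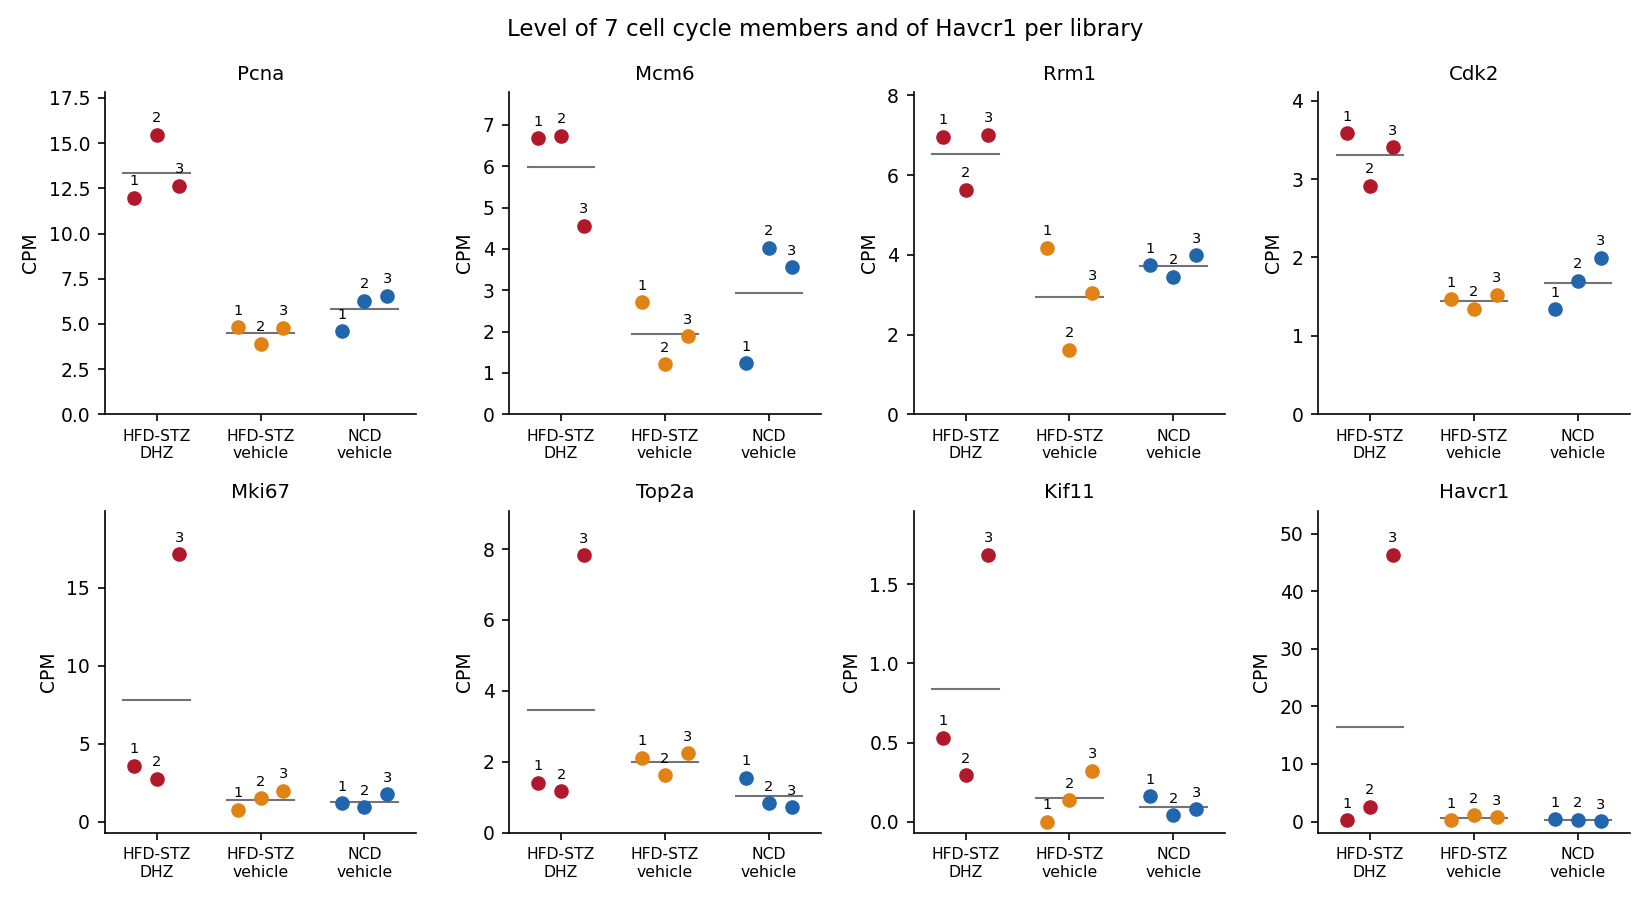
CPM (y axis) of 4 replication and G1/S genes (top row), 3 mitosis genes and the tubule injury marker Havcr1 (bottom row) in each library, by group (x axis). Points are libraries numbered by replicate and lines are group means. Pcna is at 12.0 to 15.5 CPM in all 3 DHZ libraries, whereas Mki67 is at 3.59, 2.75 and 17.2 CPM.

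The promoters of 3 replication genes are shown for the E2F site, the element that S-phase genes share. They are the replication genes with the lowest p against NCD vehicle among members with an entry in the RefSeq promoter table (GRCm38.p6), which was matched by symbol for 36 of 44 members and runs from 250 bases before to 50 bases after the start. The counts were made on GRCm39, and these coordinates are of GRCm38.p6 only. They are Pcna at chr2:132253131-132253430 on the minus strand, Rrm2 at chr12:24708004-24708303 on the plus strand and Mcm5 at chr8:75109259-75109558 on the plus strand. Capitals mark matches, on either strand, to the E2F site (read as TTTCCCG or as TTTGGCG or as TTTCGCG), to the CHR element (read as TTTGAA or as TTTAAA) and to the CCAAT box.
Pcna: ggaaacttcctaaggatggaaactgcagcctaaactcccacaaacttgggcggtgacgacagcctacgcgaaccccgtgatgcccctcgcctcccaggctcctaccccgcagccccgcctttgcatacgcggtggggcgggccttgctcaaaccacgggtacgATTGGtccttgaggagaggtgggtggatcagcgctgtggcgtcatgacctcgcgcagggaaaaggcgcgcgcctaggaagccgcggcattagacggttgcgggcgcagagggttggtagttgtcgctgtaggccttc
Rrm2: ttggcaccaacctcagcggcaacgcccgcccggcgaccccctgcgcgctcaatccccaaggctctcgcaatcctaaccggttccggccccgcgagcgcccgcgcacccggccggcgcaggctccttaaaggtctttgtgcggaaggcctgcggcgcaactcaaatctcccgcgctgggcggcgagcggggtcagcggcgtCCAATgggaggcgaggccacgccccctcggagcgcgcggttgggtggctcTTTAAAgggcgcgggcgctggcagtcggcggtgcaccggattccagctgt
Mcm5: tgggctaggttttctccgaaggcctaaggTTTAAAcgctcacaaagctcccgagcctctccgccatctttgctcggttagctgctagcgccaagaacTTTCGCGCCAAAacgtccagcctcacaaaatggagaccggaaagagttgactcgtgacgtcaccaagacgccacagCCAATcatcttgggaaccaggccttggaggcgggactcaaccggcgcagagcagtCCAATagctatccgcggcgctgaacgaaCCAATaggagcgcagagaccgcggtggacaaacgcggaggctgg
In Mcm5 the capitals hold 2 overlapping E2F matches on opposite strands, 1 CHR match and 3 CCAAT boxes. Pcna had only 1 CCAAT box, and Rrm2 had 1 CCAAT box and 1 CHR match at its start site. An E2F match was found in 9 of 21 promoters of replication members (42.9%, where some genes have more than 1 promoter) and in 5.6% of all 32851 promoters in the table. A match is a run of letters and not a measured binding site, and a promoter without a match may hold a site spelled otherwise.

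The G1/S drivers act upstream of the replication genes. Cdk2, the kinase that cyclin E and cyclin A activate, had 3.59, 2.92 and 3.40 CPM in HFD-STZ DHZ, against 1.46, 1.35 and 1.52 CPM in HFD-STZ vehicle and 1.34, 1.70 and 1.99 CPM in NCD vehicle. The DHZ libraries were tight and apart from both vehicle groups. Cdk2 rose by 1.17 ± 0.28 on the log2 scale against HFD-STZ vehicle (adjusted p = 0.014) and by 0.96 ± 0.27 against NCD vehicle (adjusted p = 0.035). The cyclins were not called. Ccnd1, the growth-factor-induced cyclin, had 56.4, 61.0 and 44.9 CPM in HFD-STZ DHZ, against 64.9, 37.1 and 36.1 CPM in HFD-STZ vehicle and 53.2, 71.7 and 78.6 CPM in NCD vehicle. The 3 groups overlapped, with log2 fold changes of 0.23 against HFD-STZ vehicle and -0.33 against NCD vehicle (adjusted p = 0.563 and 0.433). Cyclin E2 (Ccne2) had 0.382, 0.648 and 0.785 CPM in HFD-STZ DHZ, against 0.596, 0.405 and 0.562 CPM in HFD-STZ vehicle and 0.749, 0.582 and 0.435 CPM in NCD vehicle, again overlapping (log2 fold change 0.17, adjusted p = 0.811). Ccne1 had 6, 4 and 5 counts in HFD-STZ DHZ, against 5, 0 and 0 counts in HFD-STZ vehicle and 1, 2 and 2 counts in NCD vehicle, too few to test.

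Among the mitosis genes, HFD-STZ DHZ replicate 3 stood above the rest. All 20 mitosis genes had their highest value of the 9 libraries there, and 17 of the 20 were at least 2 times the next library. For all genes tested, 10.1% had their highest value in that library and 0.518% were at least 2 times the next. Among the replication genes, 12 of 20 were highest there and 2 were at least 2 times the next. The ratio of DHZ replicate 3 to the mean of DHZ replicates 1 and 2 had a median of 4.88 over the mitosis genes, with a range of 2.05 to 14.4. It was 1.38 over the replication genes, 1.13 over the G1/S drivers and 0.99 over all genes tested. The 20 mitosis genes had 512, 1131 and 2299 counts in the DHZ libraries, against 133 to 530 in HFD-STZ vehicle and 256 to 514 in NCD vehicle. Without Mki67 and Kif23, the most abundant of them per kb, the other 18 mitosis genes still summed to 8.11, 7.57 and 39.0 CPM in HFD-STZ DHZ, against 7.21, 7.42 and 9.19 CPM in HFD-STZ vehicle and 7.32, 3.99 and 5.75 CPM in NCD vehicle.

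Mki67, which encodes the Ki-67 antigen of cycling cells, was the mitosis gene called in both comparisons. It had 3.59, 2.75 and 17.2 CPM in HFD-STZ DHZ, against 0.759, 1.48 and 1.97 CPM in HFD-STZ vehicle and 1.18, 0.914 and 1.76 CPM in NCD vehicle. DHZ replicate 3 was far above the rest, and DHZ replicates 1 and 2 were also above all 6 vehicle libraries. Mki67 rose by 2.46 ± 0.71 on the log2 scale against HFD-STZ vehicle (adjusted p = 0.034) and by 2.57 ± 0.69 against NCD vehicle (adjusted p = 0.036). Without DHZ replicate 3 these were 1.17 (adjusted p = 0.081) and 1.29 (adjusted p = 0.0735), and neither passed.

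Kif11, Tpx2 and Nusap1 build the spindle, Kif11 as the motor that pushes its poles apart, Tpx2 as an activator of Aurora A and Nusap1 as a microtubule bundler. Kif11 had 0.529, 0.293 and 1.69 CPM in HFD-STZ DHZ, against 0, 0.135 and 0.321 CPM in HFD-STZ vehicle and 0.160, 0.0415 and 0.0767 CPM in NCD vehicle. Tpx2 had 0.529, 0.386 and 2.15 CPM in HFD-STZ DHZ, against 0.434, 0.270 and 0.441 CPM in HFD-STZ vehicle and 0.267, 0.125 and 0.153 CPM in NCD vehicle. Nusap1 had 1.12, 0.740 and 3.49 CPM in HFD-STZ DHZ, against 0.379, 0.405 and 0.762 CPM in HFD-STZ vehicle and 0.642, 0.332 and 0.383 CPM in NCD vehicle. In each of the 3, DHZ replicate 3 was over 3 times the other DHZ libraries, the DHZ group lay above NCD vehicle, and it overlapped HFD-STZ vehicle. Against NCD vehicle, Kif11 rose by 3.17 ± 0.92 on the log2 scale (adjusted p = 0.040), on 1 to 3 counts in each NCD vehicle library. Tpx2 rose by 2.49 ± 0.70 (adjusted p = 0.037) and Nusap1 by 1.99 ± 0.59 (adjusted p = 0.044). Without DHZ replicate 3, Tpx2 was at 1.36 (adjusted p = 0.143), Nusap1 was at 1.06 (adjusted p = 0.187), and Kif11 had too few counts to be tested.

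Other mitosis genes were high in DHZ replicate 3 and near the vehicle libraries in the other 2 DHZ libraries. Top2a, the topoisomerase that untangles chromosomes, had 1.41, 1.17 and 7.82 CPM in HFD-STZ DHZ, against 2.11, 1.62 and 2.25 CPM in HFD-STZ vehicle and 1.55, 0.831 and 0.716 CPM in NCD vehicle. DHZ replicates 1 and 2 were thus below all 3 HFD-STZ vehicle libraries, and the estimate was 0.76 ± 0.65 (adjusted p = 0.419), or -0.64 without replicate 3. Cenpf, a kinetochore protein, had 0.529, 0.771 and 4.65 CPM in HFD-STZ DHZ, against 0.705, 1.75 and 0.762 CPM in HFD-STZ vehicle and 0.695, 0.0831 and 0.562 CPM in NCD vehicle. Its estimate against HFD-STZ vehicle was -0.59 without replicate 3 and 0.99 with all libraries, a change of direction. Cdk1, the kinase that starts mitosis, had 0.353, 0.416 and 1.83 CPM in HFD-STZ DHZ, against 0, 0 and 0.401 CPM in HFD-STZ vehicle and 0.0535, 0.208 and 0.153 CPM in NCD vehicle (log2 fold change against HFD-STZ vehicle 2.24 ± 0.97, adjusted p = 0.113). Without DHZ replicate 3 its estimate was 1.12 (adjusted p = 0.422). It passed in 1 of the 9 fits that left out a library, the one without HFD-STZ vehicle replicate 3 (7.70, adjusted p = 0.032), where both remaining HFD-STZ vehicle libraries are at 0 and the size of the estimate depends on the prior count.

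Hmmr, a spindle-assembly protein, showed the widest gap within the DHZ group, at 0.206, 0.231 and 3.14 CPM, against 0.488, 0.674 and 1.08 CPM in HFD-STZ vehicle and 0.535, 0.249 and 0.690 CPM in NCD vehicle. Its estimate against HFD-STZ vehicle was 0.60 with all libraries and -1.77 without replicate 3 (adjusted p = 0.673 and 0.067). Kif23, a motor of cytokinesis, differed from the other mitosis genes, with 3.35, 7.13 and 10.7 CPM in HFD-STZ DHZ, against 10.7, 9.04 and 10.1 CPM in HFD-STZ vehicle and 8.98, 5.73 and 5.62 CPM in NCD vehicle. Its DHZ replicate 3 was level with HFD-STZ vehicle, and DHZ replicate 1 was the lowest of all 9 libraries. Ccna2, Plk1, Bub1b and Birc5 had estimates from 0.22 (Plk1) to 1.15 (Birc5) against HFD-STZ vehicle, and none passed. Without replicate 3, Plk1 was at -0.48 and Birc5 at -0.09. The 7 mitosis genes too low to test had 22 to 48 counts each in DHZ replicate 3, against 3 to 18 counts in the other DHZ libraries, 0 to 12 in HFD-STZ vehicle and 0 to 8 in NCD vehicle.

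**Figure D4:**
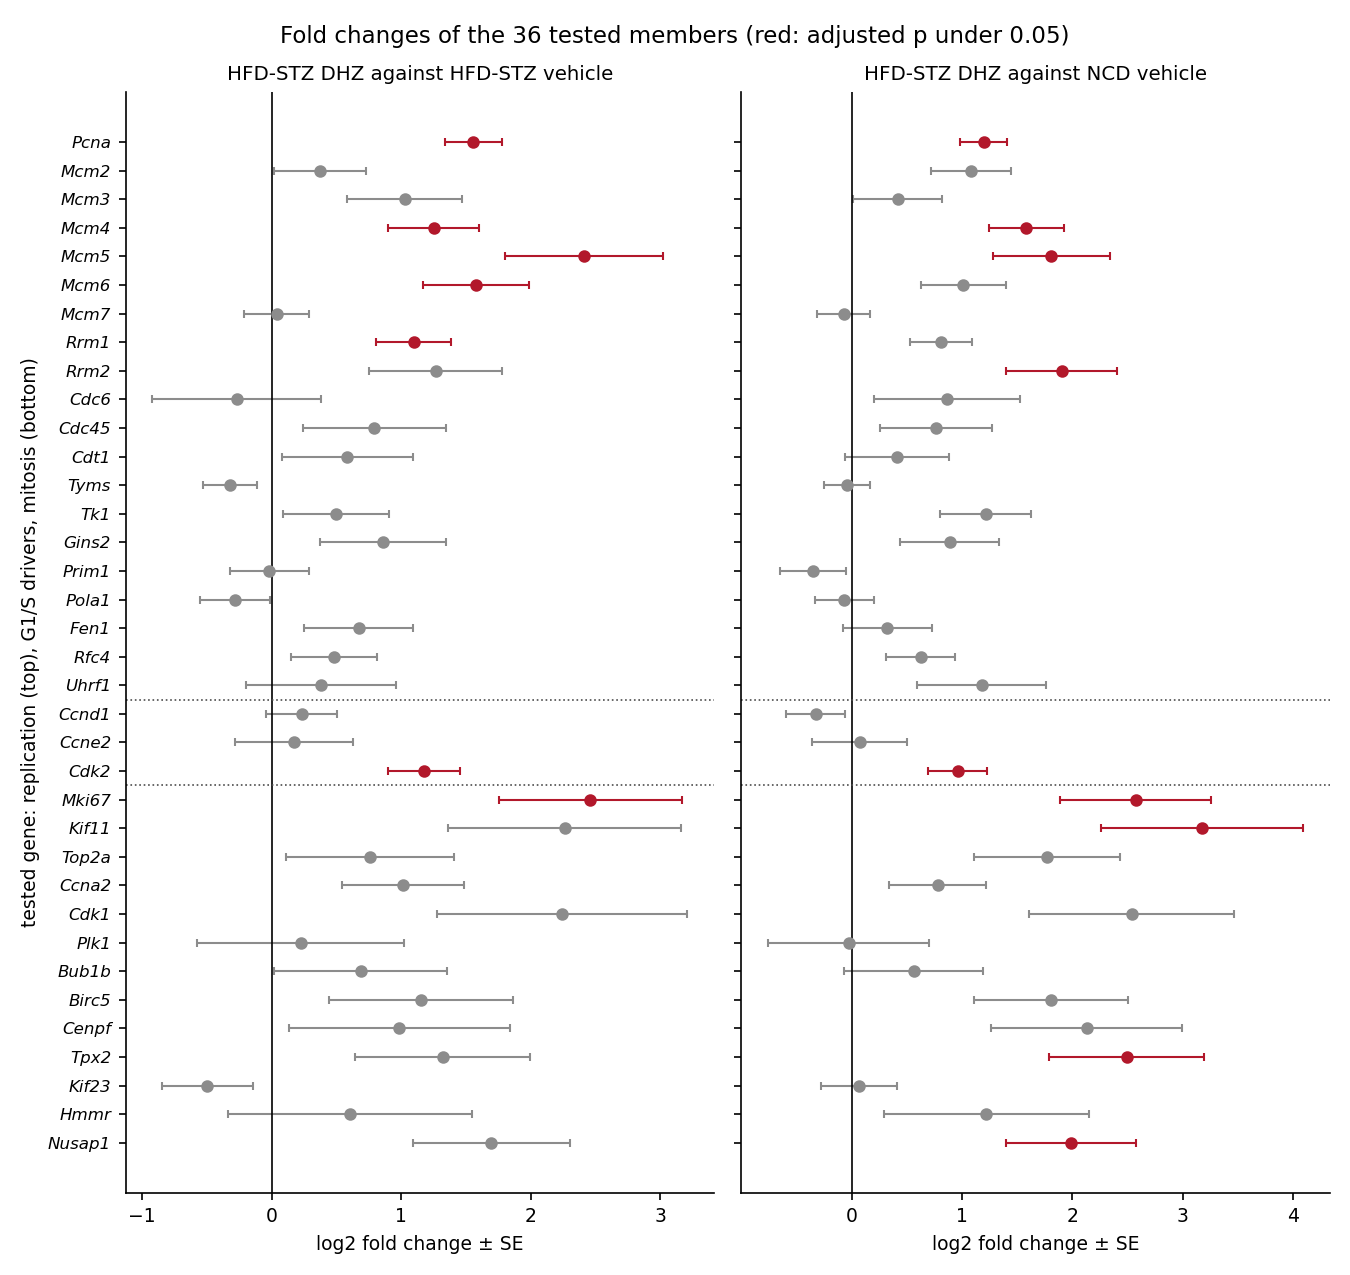
Log2 fold change with its SE (x axis) of the 36 tested members (y axis) in HFD-STZ DHZ against HFD-STZ vehicle (left) and against NCD vehicle (right). Red points passed an adjusted p of 0.05. The 7 and 9 red points all lie to the right of 0, and the widest error bars are those of mitosis genes.

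The promoters of 3 mitosis genes chosen by the same rule are shown for the CHR element, which mitosis genes share. They are Mki67 at chr7:135716330-135716629 on the minus strand, Kif11 at chr19:37376132-37376431 on the plus strand and Nusap1 at chr2:119618048-119618347 on the plus strand, with capitals as above.
Mki67: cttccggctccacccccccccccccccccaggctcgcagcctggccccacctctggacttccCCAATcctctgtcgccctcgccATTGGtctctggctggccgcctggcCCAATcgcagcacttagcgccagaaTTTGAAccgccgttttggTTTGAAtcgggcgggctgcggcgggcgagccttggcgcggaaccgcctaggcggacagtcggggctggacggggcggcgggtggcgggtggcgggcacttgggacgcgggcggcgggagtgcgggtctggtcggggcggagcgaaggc
Kif11: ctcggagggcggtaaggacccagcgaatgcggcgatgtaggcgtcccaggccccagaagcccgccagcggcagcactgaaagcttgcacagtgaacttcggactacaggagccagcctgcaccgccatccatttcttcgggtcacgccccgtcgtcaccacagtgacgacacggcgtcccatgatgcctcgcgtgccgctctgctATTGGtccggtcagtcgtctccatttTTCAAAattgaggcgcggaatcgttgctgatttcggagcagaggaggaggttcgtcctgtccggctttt
Nusap1: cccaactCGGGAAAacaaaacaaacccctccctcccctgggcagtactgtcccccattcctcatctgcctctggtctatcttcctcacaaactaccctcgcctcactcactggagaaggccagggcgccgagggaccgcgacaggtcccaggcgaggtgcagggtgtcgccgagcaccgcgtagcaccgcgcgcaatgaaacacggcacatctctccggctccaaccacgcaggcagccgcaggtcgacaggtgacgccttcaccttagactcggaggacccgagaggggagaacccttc
Mki67 held 2 CHR matches, which begin 116 and 98 bases before the start, and 3 CCAAT boxes. Kif11 held 1 of each, and Nusap1 held a lone E2F match and no CHR match in this window. Over the 16 promoters of mitosis members, 14 held a CHR match (87.5%), against 7 of 21 of replication members (33.3%) and 27.6% of all promoters in the table. CCAAT boxes were in 87.5% of the mitosis promoters, 66.7% of the replication promoters and 37.4% of all promoters, and E2F matches were in 18.8% of the mitosis promoters. These shares describe the sequences and carry no test.

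DHZ replicate 3 was left out because its mitosis genes were seen to be high, so lower mitosis values without it follow from that choice. Against HFD-STZ vehicle, the median log2 fold change of the 12 mitosis genes that could still be tested was 0.01 without it and 1.00 with it, 6 of the 12 estimates were above 0, and edgeR called 0. For the 20 replication genes the median was 0.40 without it and 0.63 with it, and 4 were called, namely Pcna, Mcm5, Mcm6 and Rrm1. Against NCD vehicle, the mitosis median was 0.46 without it and 1.79 with it, and the replication median 0.57 and 0.84. As sums of CPM, mitosis in HFD-STZ DHZ was 1.72 times HFD-STZ vehicle with all libraries and 0.843 times without DHZ replicate 3. Per total count, an alternative to the TMM scaling that was combined with leaving out the library after the data were seen, the mitosis ratio was 2.87 with all libraries and 1.45 without DHZ replicate 3. The direction of the mitosis sum without that library thus turned with the scaling, and it also rested on Kif23. Without Mki67 and Kif23, DHZ replicates 1 and 2 summed to 8.11 and 7.57 CPM, against 7.21, 7.42 and 9.19 CPM in HFD-STZ vehicle. Replication was 1.50 times HFD-STZ vehicle with all libraries and 1.43 times without DHZ replicate 3, or 2.45 and 2.37 times per total count.

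**Figure D5:**
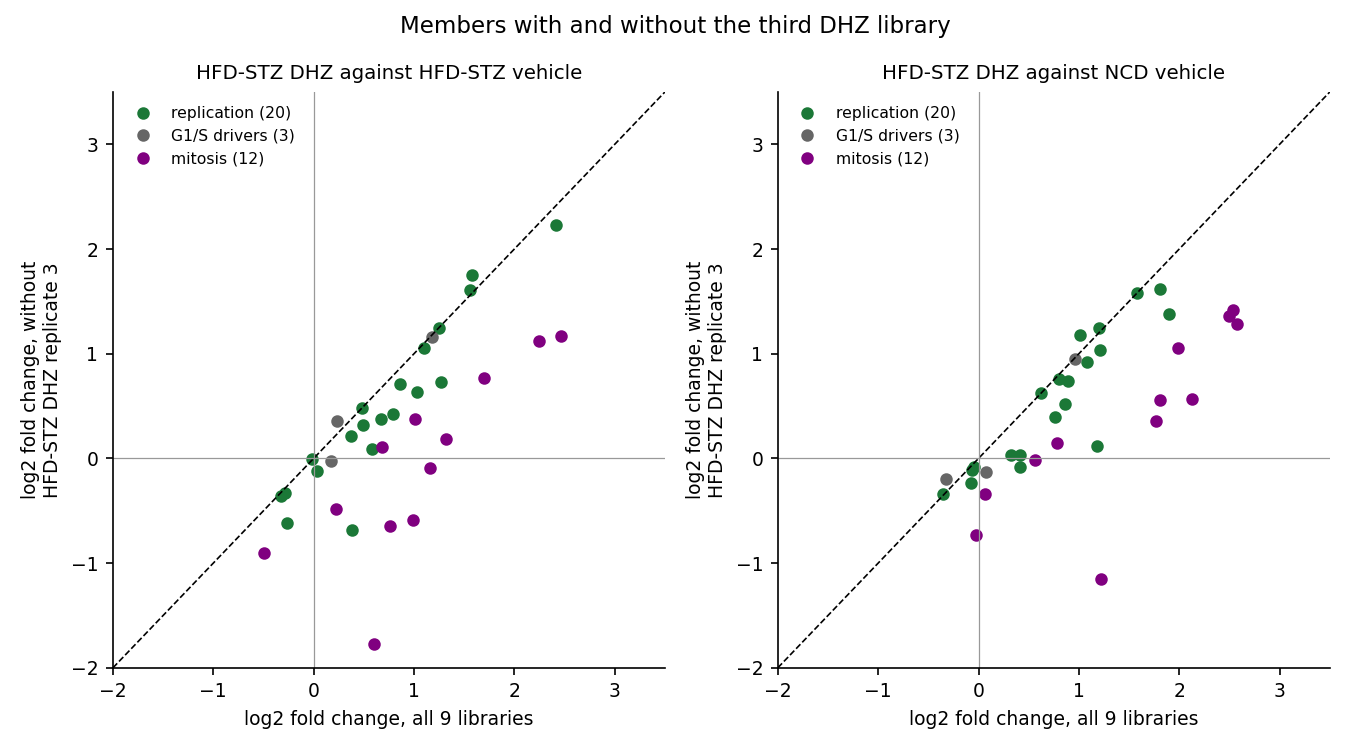
Log2 fold change of each member in the fit with all 9 libraries (x axis) and in the fit without HFD-STZ DHZ replicate 3 (y axis), against HFD-STZ vehicle (left) and NCD vehicle (right). The dashed line marks equal values. All 12 mitosis genes (purple) lie below the line in both panels, whereas replication genes (green) with high values lie near it.

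Calls were also lost with other libraries left out. Over all genes, the 3796 calls against HFD-STZ vehicle were 1149, 1302 and 2952 without DHZ replicates 1, 2 and 3. Against HFD-STZ vehicle, Pcna passed in all 9 fits that left out 1 library, with log2 fold changes of 1.44 to 1.64. Without DHZ replicate 1, Mcm4, Mcm5, Mcm6, Rrm1 and Cdk2 missed the threshold (adjusted p = 0.055 to 0.095). Without DHZ replicate 2 the same applied to Mcm4, Mcm5, Mcm6 and Rrm1 (adjusted p = 0.050 to 0.069), and without DHZ replicate 3 to Mcm4 and Mki67 (adjusted p = 0.054 and 0.081). Of the HFD-STZ vehicle libraries, leaving out replicate 1 lost Mcm5 and Mki67 (adjusted p = 0.056 and 0.099), replicate 2 lost Mki67 (adjusted p = 0.109), and replicate 3 lost Mcm4, Mcm6 and Mki67 (adjusted p = 0.053 to 0.084). Without NCD vehicle replicate 2, Mki67 was lost (adjusted p = 0.051). The lowest estimate of any of the 7 in these fits was 0.86, for Rrm1.

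Against NCD vehicle, Pcna missed only without DHZ replicate 2 (adjusted p = 0.053), and the other 8 calls were less stable. Leaving out a DHZ or NCD vehicle library lost 6 to 8 of the 9 calls or left them untested. The adjusted p of the lost calls was 0.060 to 0.126 without DHZ replicate 1, 0.053 to 0.105 without DHZ replicate 2 and 0.072 to 0.187 without DHZ replicate 3. It was 0.064 to 0.129 without NCD vehicle replicate 1, 0.061 to 0.125 without replicate 2 and 0.052 to 0.135 without replicate 3. Without HFD-STZ vehicle replicate 2, Mki67 was lost (adjusted p = 0.063). Over all genes, the 2352 calls against NCD vehicle were 112, 245 and 1627 without DHZ replicates 1, 2 and 3. They were 259, 779 and 1675 without NCD vehicle replicates 1, 2 and 3.

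Markers of injured tubule cells were high in the same library as the mitosis genes. Over the 9 markers the summed level was 504, 512 and 2101 CPM in HFD-STZ DHZ, against 218, 283 and 213 CPM in HFD-STZ vehicle and 140, 293 and 306 CPM in NCD vehicle. Of the 9, 7 had their highest value in DHZ replicate 3, and 5 were at least 2 times the next library there. Of the 8 tested against HFD-STZ vehicle, Spp1 and Vcam1 were called higher, by 2.37 and 1.87 on the log2 scale (adjusted p = 0.017 and 0.048), and Sox9 fell by 1.28 (adjusted p = 0.010). Of all genes tested, 22.1% were called there. In a fit without DHZ replicate 3, added after the data were seen, Spp1 was at 1.30 (adjusted p = 0.049). Vcam1 missed at 0.72 (adjusted p = 0.115) and Sox9 was at -1.22 (adjusted p = 0.031). Against NCD vehicle, where 13.7% of all genes were called, 2 of the 8 were called, Sox9 higher by 2.44 (adjusted p = 0.0083) and Spp1 by 2.20 (adjusted p = 0.031). Without DHZ replicate 3 these were 2.51 (adjusted p = 0.018) and 1.13 (adjusted p = 0.095). In HFD-STZ vehicle against NCD vehicle 1 of the 8 was called, higher, where 0.0524% of all genes were called. The highest estimate of the 8 there was 3.72 and the lowest adjusted p was 0.00084. Havcr1, the kidney injury molecule of proximal tubule cells, had 0.235, 2.59 and 46.3 CPM in HFD-STZ DHZ, against 0.217, 1.08 and 0.762 CPM in HFD-STZ vehicle and 0.374, 0.291 and 0.0767 CPM in NCD vehicle. Krt20 had 0.206, 0.416 and 5.99 CPM, Vcam1 had 5.82, 6.74 and 29.8 CPM, and Spp1 had 440, 444 and 1921 CPM in the DHZ libraries. Spp1 alone thus made up most of the summed level of the 9 markers in those libraries. The part of injured tubule cells in the mitosis result was not tested.

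Markers of other cells also differed. Against HFD-STZ vehicle, where 22.1% of all genes were called, 4 of 9 tested macrophage markers were called, C1qa, C1qb and C1qc higher and Csf1r lower. Higher calls were also made for 2 of 9 fibroblast and pericyte markers (Pdgfrb and Col3a1), 1 of 9 lymphocyte markers (Ptprc), 1 of 2 neutrophil markers (S100a9), 1 of 7 erythroid markers (Tfrc) and 1 of 6 adipocyte markers (Cidec). The median log2 fold change was 1.31 over the injured tubule markers, 1.00 over the macrophage markers and 3.09 over the adipocyte markers. Of 9 tested endothelial markers edgeR called 0, with 2 at an unadjusted p under 0.05, DESeq2 called 1 and limma-voom called 0. Without DHZ replicate 3, Csf1r, C1qa, Ptprc and S100a9 missed the threshold (adjusted p = 0.051 to 0.087). Against NCD vehicle, Lyz2, C1qb, C1qc, Ptprc, Tfrc and Col3a1 were called higher and Csf1r, Flt1 and Acta2 lower, and without DHZ replicate 3 C1qb, C1qc, Col3a1 and Flt1 missed (adjusted p = 0.078 to 0.130).

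In level, of 9 macrophage markers, 7 were highest in DHZ replicate 3, at summed levels of 41.5, 45.1 and 52.9 CPM in HFD-STZ DHZ, 23.9 to 55.6 CPM in HFD-STZ vehicle and 36.9 to 53.0 CPM in NCD vehicle. Of 12 lymphocyte markers, 4 were highest there, with summed levels of 14.1 to 30.2 CPM in HFD-STZ DHZ, 8.63 to 27.2 CPM in HFD-STZ vehicle and 8.07 to 10.8 CPM in NCD vehicle, and Ptprc of all leukocytes had 6.53, 6.43 and 13.5 CPM in the DHZ libraries. Of 9 fibroblast and pericyte markers, 3 were highest there, with summed levels of 75.7 to 151 CPM in HFD-STZ DHZ, 59.9 to 79.3 CPM in HFD-STZ vehicle and 106 to 118 CPM in NCD vehicle. The neutrophil markers Ly6g, Mpo and Camp had 0 counts in all 9 libraries, and the 7 neutrophil markers summed to at most 1.38 CPM in any library. Endothelial markers summed to 83.0 to 120 CPM in HFD-STZ DHZ, 74.5 to 155 CPM in HFD-STZ vehicle and 126 to 159 CPM in NCD vehicle. Erythroid markers summed to 32.9 to 296 CPM in HFD-STZ DHZ, 41.0 to 131 CPM in HFD-STZ vehicle and 36.7 to 173 CPM in NCD vehicle. Adipocyte markers summed to 0.663 to 20.5 CPM in HFD-STZ DHZ, 0.321 to 2.44 CPM in HFD-STZ vehicle and 0.428 to 31.2 CPM in NCD vehicle. Adrenal markers summed to at most 1.50 CPM in any library, with Cyp11b2, Th and Pnmt at 0. None of the endothelial, erythroid, adipocyte or adrenal markers was highest in DHZ replicate 3. The part of these cells in the results was not tested.

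HFD-STZ DHZ replicate 3 is also the DHZ library with Y-linked transcripts above trace level. Among the 4 libraries of that kind, the mitosis genes summed to 66.8 CPM in HFD-STZ DHZ, against 17.9 and 21.3 CPM in HFD-STZ vehicle and 17.5 CPM in NCD vehicle. Among the other 5 libraries they summed to 15.1 and 17.4 CPM in HFD-STZ DHZ, against 18.6 CPM in HFD-STZ vehicle and 10.6 and 13.1 CPM in NCD vehicle. The replication genes summed to 67.8 CPM in HFD-STZ DHZ, against 36.4 and 42.7 CPM in HFD-STZ vehicle and 42.0 CPM in NCD vehicle among the 4 libraries. Among the other 5 they summed to 59.1 and 59.3 CPM in HFD-STZ DHZ, against 44.9 CPM in HFD-STZ vehicle and 43.7 and 39.1 CPM in NCD vehicle. In sum, the replication genes were higher in HFD-STZ DHZ within both kinds of library, with much of the gap in Pcna, Mcm6 and Rrm1. The mitosis genes were higher than in both vehicle groups among the 4, where DHZ has 1 library. Among the other 5, the DHZ sums lay above NCD vehicle and below HFD-STZ vehicle. Without Mki67 and Kif23 they were 8.11 and 7.57 CPM, against 7.21 CPM in HFD-STZ vehicle and 3.99 and 5.75 CPM in NCD vehicle.

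In HFD-STZ vehicle against NCD vehicle, where the diet and STZ are compared, no member was called and the mitosis estimates leaned higher. The median log2 fold change was 0.13 over the tested members and 0.56 over the mitosis genes. It was within 0.01 of 0 over the replication genes and over all genes. In other fits the mitosis median ran from -0.23 (library size only) to 0.62 (without NCD vehicle replicate 1). It was -0.18 with a Y-linked term and 0.10 without HFD-STZ vehicle replicate 3. The groups did not overlap in 11.4% of all genes, of which the lower ones were 6.56% and the higher ones 4.83%. Among the members, 7 of 36 members (19.4%) were higher in every HFD-STZ vehicle library than in every NCD vehicle library and 1 was lower. Of these 7, 5 were mitosis genes (Top2a, Birc5, Cenpf, Tpx2 and Kif23) and 2 were replication genes (Cdc6 and Uhrf1). None passed the test (adjusted p = 0.739 to 0.853), and Top2a had an estimate of 1.01, Cenpf one of 1.14 and Tpx2 one of 1.17. Birc5, an inhibitor of apoptosis and part of the chromosomal passenger complex, had 0.434, 0.405 and 0.281 CPM in HFD-STZ vehicle, against 0.267, 0.166 and 0.256 CPM in NCD vehicle. Mcm3 was lower in all HFD-STZ vehicle libraries, at 0.434, 0.405 and 0.522 CPM, against 0.642, 0.623 and 0.843 CPM in NCD vehicle (log2 fold change -0.61, adjusted p = 0.772).

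A further 8 lists of cell cycle genes, 148 genes in all, were read in the same fit. Of their 119 tested genes, edgeR called 19 against HFD-STZ vehicle (16.0%, where 22.1% of all genes were called) and 15 against NCD vehicle (12.6%, where 13.7% of all genes were called). In HFD-STZ vehicle against NCD vehicle, edgeR called 0 of the 119, with 10 at an unadjusted p under 0.05, DESeq2 called 1 and limma-voom called 0. Among 16 tested genes of the E2F, RB and DREAM regulators, 4 rose and none fell against HFD-STZ vehicle, with a median log2 fold change of 0.46. That share, 4 of 16, is near the 22.1% of all genes. E2f3, an activator of S-phase genes, had 2.20, 2.21 and 2.91 CPM in HFD-STZ DHZ, against 0.759, 1.48 and 1.08 CPM in HFD-STZ vehicle and 0.802, 0.997 and 0.716 CPM in NCD vehicle. It rose by 1.19 against HFD-STZ vehicle (adjusted p = 0.0285) and by 1.54 against NCD vehicle (adjusted p = 0.017). Rb1, which holds E2F in check, rose too, by 0.79 (adjusted p = 0.0429) and 1.06 (adjusted p = 0.0222). The other 2 were Tfdp1, the partner of E2F, and Lin52 of the DREAM complex, with 0.88 and 1.46 (adjusted p = 0.0442 and 0.0242). Rbl1, which encodes the pocket protein p107, and the repressor E2f6 rose against NCD vehicle only, by 1.21 and 1.35 (adjusted p = 0.027 and 0.015), with 0.34 and 0.54 against HFD-STZ vehicle.

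Inhibitors of cyclin-dependent kinases moved both ways. Cdkn1c, which encodes p57 and marks podocytes in the kidney, had 8.91, 7.70 and 7.12 CPM in HFD-STZ DHZ, against 19.4, 17.1 and 14.7 CPM in HFD-STZ vehicle and 17.2, 18.2 and 16.5 CPM in NCD vehicle. It fell by 1.11 on the log2 scale against HFD-STZ vehicle (adjusted p = 0.0050) and by 1.13 against NCD vehicle (adjusted p = 0.0093). Cdkn2c, which encodes p18, rose by 0.90 (adjusted p = 0.0405) and 1.13 (adjusted p = 0.024). Cdkn1a, the p21 target of p53, had 2.85, 6.65 and 10.6 CPM in HFD-STZ DHZ, against 5.69, 5.26 and 6.82 CPM in HFD-STZ vehicle and 2.14, 1.62 and 1.79 CPM in NCD vehicle. It rose against NCD vehicle (1.86, adjusted p = 0.015), and its DHZ libraries spanned the HFD-STZ vehicle range (0.16, adjusted p = 0.779).

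Of 9 other G1 cyclins and kinases, 3 rose against HFD-STZ vehicle, where 10.0% of all genes were called higher. Ccng1, a p53 target, had 93.7, 120 and 89.2 CPM in HFD-STZ DHZ, against 30.7, 46.3 and 49.2 CPM in HFD-STZ vehicle and 27.2, 28.5 and 27.9 CPM in NCD vehicle, without overlap. It rose by 1.26 (adjusted p = 0.00615) and by 1.86 against NCD vehicle (adjusted p = 0.0083), and Ccng2, a relative linked to exit from the cycle, by 1.34 (adjusted p = 0.0079) and 1.14 (adjusted p = 0.019). Cdk4, the partner of cyclin D, rose by 0.93 against HFD-STZ vehicle (adjusted p = 0.026) and not against NCD vehicle (0.24, adjusted p = 0.541).

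The wider lists of replication genes had few calls, in both directions. Of 17 tested origin-firing genes, 1 rose against HFD-STZ vehicle (Orc5, by 0.88, adjusted p = 0.025) and 1 against NCD vehicle (Gmnn, the inhibitor geminin, by 1.13, adjusted p = 0.039). Of 25 tested genes of the fork and of nucleotide supply, 2 fell against HFD-STZ vehicle, Pole3 by 0.98 (adjusted p = 0.034) and Rfc1 by 0.70 (adjusted p = 0.039), and Pole4 rose against NCD vehicle by 0.76 (adjusted p = 0.039). Their median log2 fold changes against HFD-STZ vehicle were 0.19 and 0.02, beside 0.63 over the 20 replication members. In the fork and nucleotide list, 7 of the 25 were higher and 6 lower without overlap between HFD-STZ DHZ and HFD-STZ vehicle, where 39.8% of all genes did not overlap. There 8 of the 25 had an unadjusted p under 0.05 and DESeq2 called 5.

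Gene by gene, the wider lists of mitosis genes shared the high library, but not in both sums. The kinetochore and checkpoint genes summed to 31.3, 29.3 and 45.5 CPM in HFD-STZ DHZ, against 23.6, 27.8 and 26.7 CPM in HFD-STZ vehicle. The spindle and cytokinesis genes summed to 94.8, 104 and 156 CPM in HFD-STZ DHZ, against 134, 199 and 139 CPM in HFD-STZ vehicle. Their highest sum was thus in HFD-STZ vehicle replicate 2. In DHZ replicate 3, 17 of 25 kinetochore and checkpoint genes and 21 of 31 spindle and cytokinesis genes had their highest value, and 6 and 15 of them were at least 2 times the next library. Among 17 tested kinetochore genes, Cenpp and Cenpq rose against HFD-STZ vehicle, by 2.24 and 1.30 (adjusted p = 0.037 and 0.049), and Spc25 and Mad2l1 rose against NCD vehicle, by 1.76 and 1.06 (adjusted p = 0.0083 and 0.048). Ect2, the exchange factor that starts the cleavage furrow, had 2.67, 4.10 and 2.38 CPM in HFD-STZ DHZ, against 0.488, 0.405 and 0.321 CPM in HFD-STZ vehicle and 0.160, 1.16 and 0.741 CPM in NCD vehicle. It was high in all 3 DHZ libraries and lowest among them in replicate 3, and it rose by 2.93 (adjusted p = 0.0066) and by 2.11 against NCD vehicle (adjusted p = 0.020). Ckap2 rose by 2.45 and 3.69 (adjusted p = 0.013 and 0.0090), and the condensin gene Smc4 fell by 1.04 against HFD-STZ vehicle (adjusted p = 0.048). Of 13 genes of the anaphase-promoting complex, Cdc26 and Cdc27 rose against HFD-STZ vehicle, by 0.81 and 0.66 (adjusted p = 0.049 and 0.035). Of all genes tested, 10.0% were called higher against HFD-STZ vehicle and 6.31% against NCD vehicle. Against NCD vehicle edgeR called 0 of the 13, with 3 at an unadjusted p under 0.05, and DESeq2 and limma-voom called 2 each.

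Calls of these other cell cycle genes were also lost with single libraries left out, as were calls over all genes (given above). Of 17 such calls followed against HFD-STZ vehicle (all but Tfdp1 and Lin52), 5 passed in all 9 fits that left out 1 library, those of Ccng1, Ccng2, Cdkn1c, Ect2 and Ckap2. Without DHZ replicate 1, 2 or 3, 12, 11 and 8 of them were lost, and without HFD-STZ vehicle replicate 1, 2 or 3, 10, 6 and 7 were lost. Leaving out NCD vehicle replicate 1, 2 or 3 lost 1, 7 and 7. The adjusted p of lost calls was 0.0504 to 0.179. Of 15 calls against NCD vehicle, 4 passed in all 9 fits, those of Ccng1, Cdkn1c, Ckap2 and Spc25. Without DHZ replicate 1, 2 or 3, 10, 11 and 5 were lost, without NCD vehicle replicate 1, 2 or 3, 11, 8 and 2 were lost, and no HFD-STZ vehicle library lost any. The adjusted p of these lost calls was 0.0514 to 0.155.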

How the data were processed

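Gene counts of 9 whole-kidney libraries were used as deposited, as raw counts of reads per gene. Per the labels' protocols, RNA was captured on poly-A in a stranded kit. FastQC, Trim Galore, STAR and GRCm39 (mm39) are named in the submitters' processing notes; the counter, versions, annotation and strand setting are not given there. Overlapping, antisense and near-identical genes therefore carry uncertain counts.

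Ensembl identifiers were matched to symbols for 94.1% of 55359 genes. Genes passing edgeR's filterByExpr were scaled by TMM and fitted with edgeR 4.0.16 (R 4.3.3) in 1 model of 9 libraries (robust quasi-likelihood, 6 residual degrees of freedom, common dispersion 0.0893). All adjusted p-values are from edgeR with Benjamini-Hochberg adjustment unless another tool is named, and errors of fold changes are SE. DESeq2 1.42.0, limma-voom (limma 3.58.1), other scalings and filters, and fits without each library were alternatives. The model was tested on simulated data first. The counting floor of 3 counts was 0.0631 to 0.199 per M of total count, and covers counting error only.

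Members and gene lists were chosen with earlier results of these data known. Full values were given for members called in any comparison and for the lowest p in each role; further members were named after their values were seen. Promoters came from RefSeq (GRCm38.p6) and matches carry no test.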

Additional observations from a re-analysis of the deposited data

How the results depend on the processing

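The 9 genes called in HFD-STZ vehicle against NCD vehicle were 29 with library size only, 126 with DESeq2, 425 unfiltered, 3 when fitted on its own 2 groups, 42 with a Y-linked term, and 2 to 28 without single libraries. In HFD-STZ DHZ against HFD-STZ vehicle, the 3796 calls were 888 with library size only (93.7% of them higher, where 45.5% were in the main scaling) and 1149 to 4086 without single libraries. In HFD-STZ DHZ against NCD vehicle, the 2352 calls were 36 with library size only, 3530 with DESeq2, 3981 with only 2 groups, 3617 with a Y-linked term and 112 to 3706 without single libraries. Among the members, 0 were called in HFD-STZ vehicle against NCD vehicle in every alternative run. The 7 called against HFD-STZ vehicle were 13 with no filter, 12 with a Y-linked term and 2 to 8 without single libraries, and the 9 against NCD vehicle were 0 with library size only, 15 with DESeq2, 21 with no filter and 1 to 12 without single libraries. Library size alone moved the median of all genes to -0.74, 0.81 and 0.04 in the 3 comparisons, and changes are therefore given relative to the TMM scaling. The replication ratio of HFD-STZ DHZ to HFD-STZ vehicle was 2.45 per total count and 2.37 per total count without HFD-STZ DHZ replicate 3, the second chosen after the data were seen, and the cause was not tested. The mitosis ratio to HFD-STZ vehicle without that library was 0.843 in the main scaling, 0.918 per nuclear protein-coding count and 1.45 per total count.

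Direction turned for Mcm2 (-0.030), Tk1 (-0.044) and Kif23 (-0.035) in HFD-STZ vehicle against NCD vehicle and for Rfc1 (0.092) in HFD-STZ DHZ against HFD-STZ vehicle, with library size only. Ccne2, near 0 throughout, was 0.017 with limma-voom and -0.30 to 0.10 without single libraries in HFD-STZ vehicle against NCD vehicle, and -0.028 to 0.42 without single libraries against HFD-STZ vehicle. Against NCD vehicle Ccne2 was -0.012 with TMM on nuclear protein-coding genes and -0.13 to 0.31 without single libraries. Alternatives were followed for 66 pairs of a gene and a comparison, and of their 1111 values 815 kept direction and side of the threshold, 274 lost the call, 11 gained it and 11 turned. Without HFD-STZ DHZ replicate 3, a further 11 uncalled member estimates outside those pairs turned, Hmmr in both comparisons of HFD-STZ DHZ, Birc5, Cenpf, Plk1, Top2a, Mcm7 and Uhrf1 against HFD-STZ vehicle, and Bub1b, Kif23 and Cdt1 against NCD vehicle.

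With the replicate number as a block, calls were 2 in HFD-STZ vehicle against NCD vehicle, 2159 (5 members) in HFD-STZ DHZ against HFD-STZ vehicle, with 772 (3 members) in HFD-STZ DHZ against NCD vehicle. No pairing by number was seen, though such a check cannot exclude one. Same-numbered libraries correlated at r of -0.41 to 0.22, 3 of 9 pairs were over 0.1, and 1 of 9 libraries correlated best with its own number. Depth limits the mitosis genes most, with 133 counts over 20 genes in HFD-STZ vehicle replicate 2.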
